A study of Rattus norvegicus with 6 samples.

Results

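Smooth muscle contracts when myosin filaments pull on actin filaments, and 6 rat genes of this machinery are described here: Acta2, Tpm1, Tpm2, Cnn1, Tagln and Myh11. Acta2 encodes the smooth muscle alpha-actin of the thin filament, Tpm1 and Tpm2 the tropomyosins that lie along it, Cnn1 the calponin that binds actin and restrains the myosin ATPase, and Tagln the actin-binding transgelin. Myh11 encodes the smooth muscle myosin heavy chain, the motor, and is the most restricted of them to smooth muscle. In the ovary such cells lie in vessel walls and, in growing follicles, in the outer theca. Acta2 and Tagln are also made by activated fibroblasts, and Tpm1 and Tpm2 by many cells through alternative splicing.

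Every probe set of a short-oligonucleotide array (Affymetrix Rat Genome U34, Set A) that its annotation ties to 1 of these symbols alone was taken, which gave 15 of the 8799 probe sets: 5 for Tpm1, 3 each for Acta2 and Myh11, 2 for Tagln and 1 each for Cnn1 and Tpm2. Another 4 probe sets name Acta2 together with the cardiac actin gene Actc1 and were left out.

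Whole ovaries of Rattus norvegicus were compared in 3 groups of 2 arrays, each array holding total RNA of a pool of about 20 ovaries. The groups were ovaries removed on the day of birth and then cultured for 7 days on floating filters in DMEM-Ham's F-12 medium with bovine serum albumin, Albumax, transferrin, insulin, ascorbic acid, penicillin and streptomycin (cultured), ovaries removed on postnatal day 4 (P4), and ovaries removed on the day of birth (P0). P4 ovaries have passed through the days in which oocyte nests break up and primordial follicles assemble. The series' design text speaks of progesterone given to some cultured ovaries, but no array is labelled as treated, so the cultured arrays are taken as 2 replicates of 1 condition. Each group is described as 2 independent pools, and the strain is not given in the sources used here. Since whole ovaries were read, a change in the number of cells of a type and a change in RNA per cell cannot be told apart.

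The chip identifiers of P0 and P4 replicate 1 end alike (batch A here), as do those of P0 and P4 replicate 2 (batch B). Each cultured array has an ending of its own, so chip and culture cannot be told apart. Nor can culture and time since birth, as the cultured ovaries were kept for 7 days after it. Values are linear intensities, whose highest reading among 15 bacterial control probe sets with no spiked transcript was 20. Intensities of different probe sets are not set against each other. Log2 values are of the intensity plus 7.7. Of the 15 probe sets, 14 passed the filter on dim values and entered a fit of all 6118 such probe sets with limma, a linear model with variances moderated across probe sets. A probe set is said to pass, to rise or to fall where its Benjamini-Hochberg adjusted p over all 6118 was under 0.05. An exact permutation of 2 against 2 arrays cannot go below a two-sided p of 0.333, so single values were not tested that way.

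None of the 14 tested probe sets passed in any of the 3 comparisons. Over the whole array, 1.08% of probe sets passed between P4 and P0, 5.43% between cultured and P0, and 2.78% between cultured and P4. At an unadjusted p under 0.05 the contractile probe sets numbered 2, 4 and 0 of 14 in those comparisons, against 13%, 20.8% and 14% of all tested. Between P4 and P0, 11 of the 14 lay above 0 in log2 difference and the median was 0.39, against -0.05 over all tested probe sets. Cultured against P0, 7 lay above 0 and the median was 0.02, against -0.08. Cultured against P4, 2 lay above 0 and the median was -0.21, against -0.04.

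**Figure D1:**
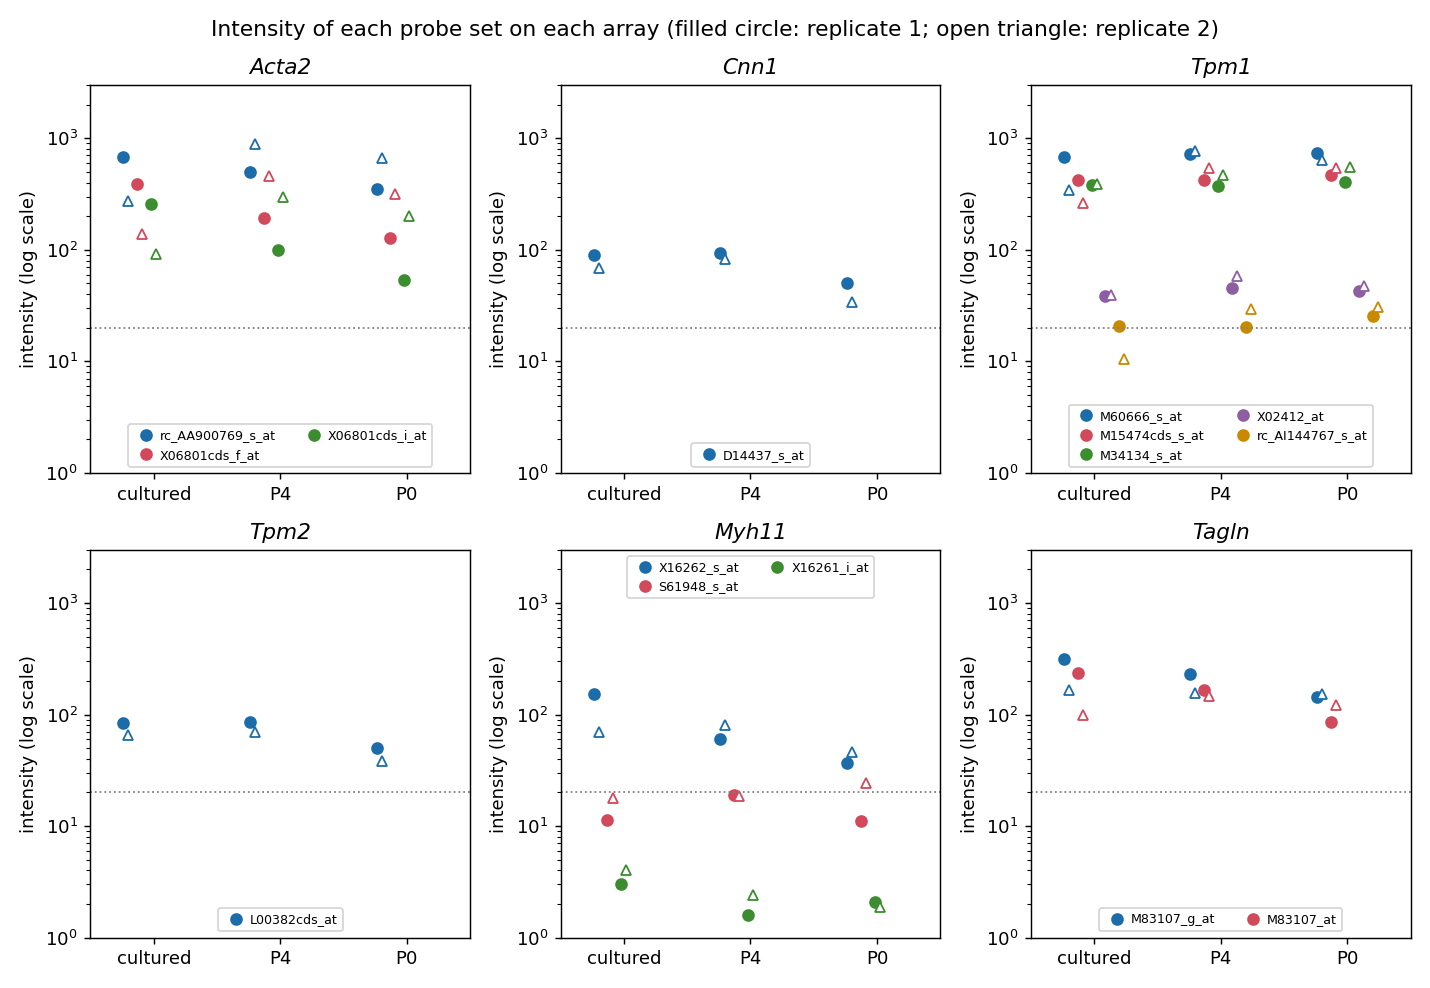
Intensity (log axis) of each of the 15 probe sets on each array, by gene, with groups in the order cultured, P4, P0. A filled circle is replicate 1, an open triangle replicate 2, a colour 1 probe set, and the dotted line the highest control reading of 20. Acta2 triangles lie above circles at P4 and P0 and below them in culture, Cnn1 and Tpm2 lie lower at P0 than in either other group, and 2 Myh11 probe sets lie near or under the dotted line.

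The promoters of 4 of the 6 genes (Acta2, Cnn1, Tpm1 and Tpm2) were in the RefSeq table of the GRCr8 build. The sequence of Acta2, the member with the largest difference between replicates, is shown because smooth muscle actin is a textbook target of serum response factor, which binds the CArG box. The CArG box has CC, 6 bases of A or T, and GG, and reads the same way on both strands. The 250 bases before the start of Acta2 hold no strict CArG box and 2 matches in which 1 of the 6 inner bases is not A or T, given in capitals. These begin 134 and 84 bases before the start. The promoter of Cnn1, whose replicates lay close together, is shown for comparison and holds no such match. A link between such matches and differences between replicates was not tested.
Acta2, GRCr8 chr1:241172504-241172753, minus strand: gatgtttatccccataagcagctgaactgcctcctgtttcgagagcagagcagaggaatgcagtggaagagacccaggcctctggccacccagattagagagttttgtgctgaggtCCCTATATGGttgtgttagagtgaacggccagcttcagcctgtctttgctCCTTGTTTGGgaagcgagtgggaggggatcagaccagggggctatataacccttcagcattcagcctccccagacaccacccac
Cnn1, GRCr8 chr8:28908187-28908436, plus strand: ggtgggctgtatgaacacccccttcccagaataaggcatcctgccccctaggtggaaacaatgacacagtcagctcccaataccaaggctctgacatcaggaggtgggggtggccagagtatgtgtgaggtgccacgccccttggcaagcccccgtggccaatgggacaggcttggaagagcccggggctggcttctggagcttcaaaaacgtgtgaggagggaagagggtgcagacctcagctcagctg
Neither Tpm1 nor Tpm2 held a strict or near match in the same window. Among 33469 RefSeq promoters cut to these 250 bases, 1.5% held a strict CArG box, 6.84% a match with 1 inner base off, and 0.43% at least 2 of the latter. The search for near matches was added after the sequences had been seen. A match of letters describes the window, and whether a protein binds there was not measured.

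Acta2, the thin filament actin, differed more between the 2 arrays of a group than between groups. Its brightest probe set (rc_AA900769_s_at) read 678.3 and 272.3 in cultured ovaries, 492.8 and 879.7 in P4 ovaries, and 349.6 and 670.6 in P0 ovaries, for replicates 1 and 2. A second probe set (X06801cds_f_at) read 390.3 and 139.7 in cultured ovaries, 193.6 and 461.4 in P4 ovaries, and 128.7 and 315.8 in P0 ovaries. The dimmest (X06801cds_i_at) read 257.6 and 91.5 in cultured ovaries, 99.6 and 294.9 in P4 ovaries, and 53.2 and 199.7 in P0 ovaries. All 3 were highest on P4 replicate 2, and the groups overlapped in every comparison. The last 2 derive from 1 transcript record, so their likeness is not independent. The manufacturer's suffix f marks a probe set that can match a gene family, and i one with fewer unique probes than wanted, and actin transcripts are alike enough for related actins to add to the signal.

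Replicate 2 exceeded replicate 1 in Acta2 by 1.79-fold, 2.38-fold and 2.96-fold at P4 on these 3 probe sets, and by 1.92-fold, 2.45-fold and 3.75-fold at P0. In culture replicate 1 exceeded replicate 2 by 2.49-fold, 2.79-fold and 2.82-fold. P0 and P4 arrays of the same chip batch therefore deviated together. Within batch A, P4 over P0 was 1.41-fold, 1.5-fold and 1.87-fold, and within batch B it was 1.31-fold, 1.46-fold and 1.48-fold, higher at P4 in both. Of the 14 probe sets 9 were higher at P4 in both batches, against 27.9% of all tested, and 3, all of Tpm1, were lower in both, against 36.9%. Fitted without the batch, the log2 differences were 0.44 (95% interval -0.57 to 1.44), 0.55 (-0.69 to 1.79) and 0.68 (-0.79 to 2.15), with limma adjusted p = 0.763, 0.756 and 0.739. With the batch as a block the adjusted p values were 0.159, 0.101 and 0.0675, and none passed. Without P0 replicate 1, which leaves both P4 arrays against batch B alone at P0, the differences were -0.03, -0.07 and -0.20.

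The beta-actin control probes differed in the same direction by less. Their 3′ set read 5552.9 and 4816.5 in culture, 5123.4 and 6060.5 at P4, and 4703.3 and 5537.8 at P0, for replicates 1 and 2. A beta-actin probe set outside the controls (V01217_at) went the other way at P0, with 5980.7 and 4468.2. It read 4544.8 and 3909.3 in culture and 5169.2 and 6171.1 at P4. The GAPDH 3′ control set read 1324.2 on P0 replicate 1, against 2162.3 to 2775.1 on the other 5 arrays. That array also gave the lowest Acta2 reading on 2 of the 3 probe sets. The part of RNA input or array quality in the Acta2 values was not tested.

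**Figure D2:**
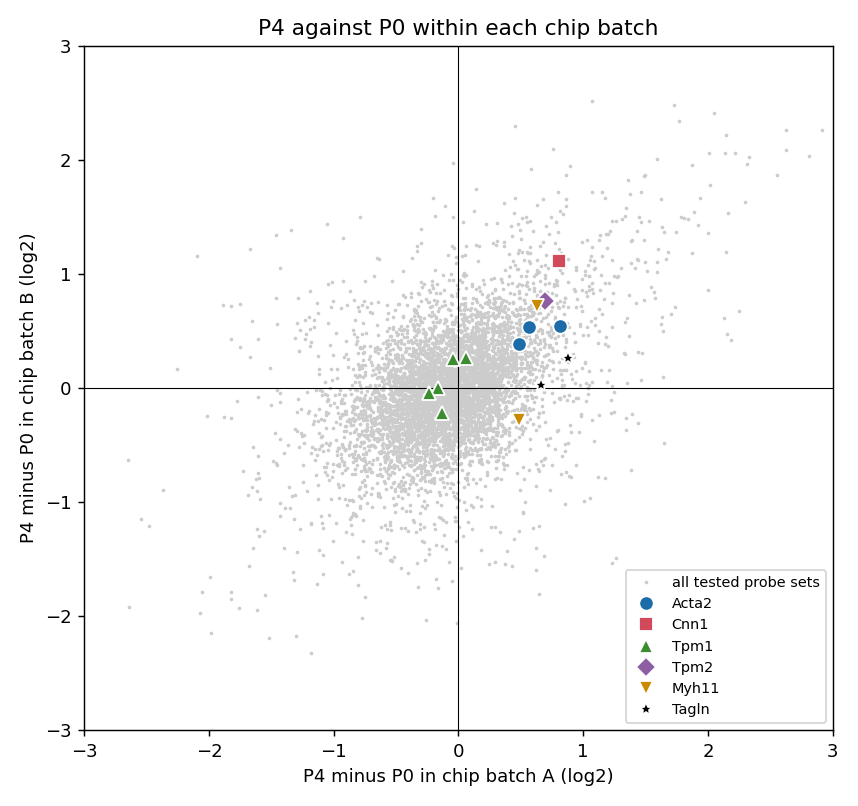
P4 minus P0 in log2 of intensity plus 7.7, in chip batch A (x axis) and chip batch B (y axis), for all 6118 tested probe sets (grey, 6 outside the range plotted) and the 14 contractile ones. Acta2, Cnn1, Tpm2 and the brighter Myh11 probe set lie in the upper right, where both batches are higher at P4, and the 5 Tpm1 probe sets lie around 0.

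Cnn1, which encodes calponin 1, had the largest log2 difference between P4 and P0 among the 14. It read 94.1 and 83.4 in P4 ovaries, against 50.6 and 34.3 in P0 ovaries, with no overlap, and 89.4 and 68.3 in cultured ovaries. The P4 mean was 88.8 ± 7.57 and the P0 mean 42.5 ± 11.5 (SD, n = 2 each), 2.09-fold apart. The log2 difference was 0.96 (95% interval 0.39 to 1.53, limma adjusted p = 0.128) and lay at 0.80 within batch A against 1.12 within batch B. With the chip batch as a block the SE was 0.21 and the adjusted p = 0.0308, so Cnn1 rose in that fit, in which 5.13% of all tested probe sets passed and Cnn1 was 1 of 14. Cultured against P0 its log2 difference was 0.80 (95% interval 0.22 to 1.37, limma adjusted p = 0.112). The order of levels was P4, cultured, P0, and cultured and P4 overlapped, with a log2 difference of -0.16 (95% interval -0.74 to 0.41).

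Tpm2, a tropomyosin, gave much the same picture on its single probe set. It read 83.7 and 65.6 in cultured ovaries, 85.5 and 69.8 in P4 ovaries, and 49.9 and 38.0 in P0 ovaries. Neither of the first 2 groups overlapped P0, and they overlapped each other. The log2 difference was 0.73 for P4 against P0 (95% interval 0.17 to 1.28, limma adjusted p = 0.226) and 0.67 for cultured against P0 (95% interval 0.12 to 1.23, limma adjusted p = 0.155). Within batches A and B the P4 level was 1.71-fold and 1.84-fold that at P0. Cultured against P4 it was -0.05 (95% interval -0.61 to 0.50).

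Myh11, the myosin motor, lay well above the control level on 1 of its 3 probe sets. The clearest (X16262_s_at) read 152.4 and 69.8 in cultured ovaries, 60.7 and 80.9 in P4 ovaries, and 36.4 and 46.1 in P0 ovaries. Both other groups lay above P0 without overlap. The cultured mean of 111.1 ± 58.4 was 2.69-fold the P0 mean of 41.3 ± 6.86 (SD, n = 2 each), the largest fold of means over P0 among the 14. Its log2 difference was 1.19 (95% interval 0.43 to 1.96, limma adjusted p = 0.083), but it rested on cultured replicate 1. Without cultured replicate 2 the difference was 1.72 and passed (adjusted p = 0.0437), and without cultured replicate 1 it was 0.67. P4 against P0 the difference was 0.68 (95% interval -0.09 to 1.44, limma adjusted p = 0.452), at 1.67-fold and 1.76-fold in batches A and B. A second Myh11 probe set (S61948_s_at) read 11.3 and 17.8 in cultured ovaries, 18.8 and 18.5 in P4 ovaries, and 11.2 and 24.2 in P0 ovaries, at or near the control level. The dimmest (X16261_i_at), with 1.6 to 4.0 on the 6 arrays, was below the filter and was not tested.

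Tagln, the transgelin gene, was read by a pair of probe sets from 1 transcript record. The first (M83107_g_at) gave 311.5 and 164.5 in cultured ovaries, 229.2 and 157.4 in P4 ovaries, and 142.4 and 154.0 in P0 ovaries. The second (M83107_at) gave 233.1 and 99.5 in cultured ovaries, 165.0 and 147.9 in P4 ovaries, and 86.3 and 121.6 in P0 ovaries. P4 lay above P0 on both without overlap, while cultured replicate 2 on the second fell inside the P0 range. The log2 differences of P4 against P0 were 0.34 and 0.57 (limma adjusted p = 0.717 and 0.557), and those of cultured against P0 were 0.59 and 0.54 (limma adjusted p = 0.326 and 0.433). In batch B the first differed by 1.02-fold only, against 1.61-fold in batch A.

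Of the 14 probe sets, 5 lay above P0 on both P4 arrays without overlap, for Cnn1, Tpm2, Myh11 and Tagln, where 18.6% of all tested probe sets did, and none lay below (25.7% of all tested). Cultured against P0, 4 lay above without overlap (21.3% of all tested) and 4 below (29% of all tested), the latter all of Tpm1. Cultured against P4, none lay above without overlap and 4 lay below (24.5% of all tested), 3 of Tpm1 and the dim Myh11 probe set.

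Tpm1 is the other tropomyosin gene. Cultured against P0 its probe sets lay below 0 and that of Tpm2 above, a difference that was not tested, while cultured against P4 all of them lay below 0. Its brightest probe set (M60666_s_at) read 683.1 and 343.2 in cultured ovaries, 719.4 and 761.0 in P4 ovaries, and 740.9 and 637.8 in P0 ovaries. The next (M15474cds_s_at) read 421.1 and 259.9 in cultured ovaries, 421.9 and 536.1 in P4 ovaries, and 472.4 and 536.7 in P0 ovaries. Cultured replicate 2 was the lowest of the 6 arrays on both. Another (M34134_s_at) read 376.7 and 388.9 in cultured ovaries, 369.9 and 470.3 in P4 ovaries, and 405.6 and 549.0 in P0 ovaries, with the cultured arrays close together. The remaining ones were dimmer, at 38.4 to 58.4 for X02412_at and 10.5 to 30.6 for rc_AI144767_s_at, the latter near the control level.

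All 5 Tpm1 probe sets had a log2 difference below 0 for cultured against P0, between -0.65 and -0.17, and none passed (limma adjusted p between 0.223 and 0.746). The second of them had the smallest p, with a difference of -0.59 (95% interval -1.16 to -0.02) and an adjusted p = 0.223. Between P4 and P0 their differences lay between -0.18 and 0.16, on both sides of 0. The 95% interval of the brightest, at 0.11, ran from -0.54 to 0.75. These probe sets can match different splice forms of the gene, which the annotation used here does not separate.

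**Figure D3:**
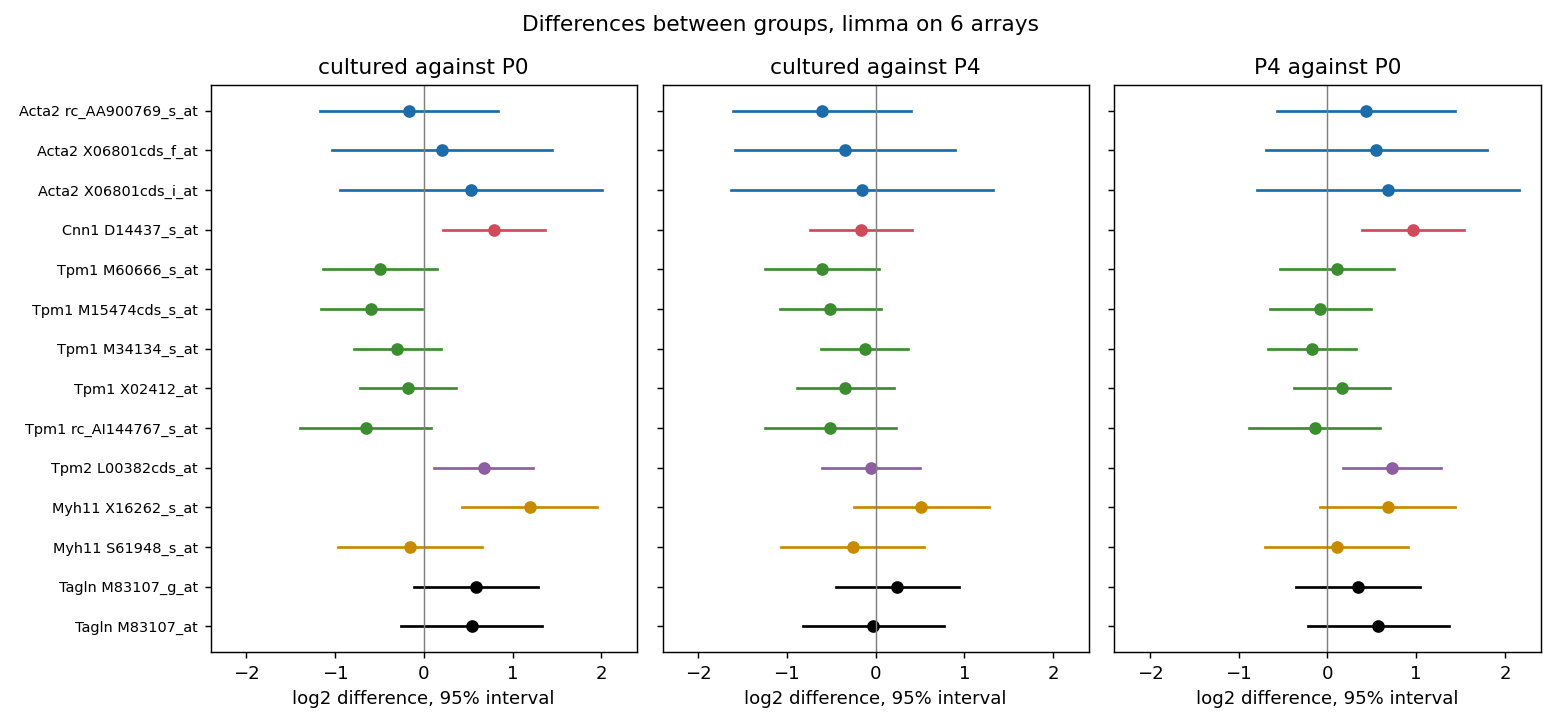
Log2 difference (x axis) with its 95% interval for the 14 tested probe sets, from limma on all 6 arrays, for cultured against P0, cultured against P4 and P4 against P0. Intervals of Cnn1, Tpm2, the brighter Myh11 and 1 Tpm1 probe set exclude 0 for cultured against P0, as do those of Cnn1 and Tpm2 for P4 against P0, all before adjustment, and the Acta2 intervals are the widest.

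The cultured arrays differed from each other in most contractile probe sets. Replicate 1 was higher on 11 of the 14, by a median of 0.79 on the log2 scale, against a median of -0.06 over all tested probe sets, of which 44.2% were higher on replicate 1. For 5 of the 14 the log2 values differed by more than 2-fold, all 3 of Acta2, the brighter Myh11 and 1 of Tagln, where 4.4% of all tested probe sets did. The exceptions were the Tpm1 probe sets M34134_s_at and X02412_at and the dim Myh11 one, while Cnn1 and Tpm2 differed by 1.31-fold and 1.28-fold. In the other groups the median of replicate 1 minus replicate 2 was -0.33 at P4 and -0.24 at P0. Over all tested probe sets it was -0.02 and 0.04. More than 2-fold between replicates were 2 of the 14 at P4 (3.47% of all tested) and 2 at P0 (4.87% of all tested). With 1 array on each side, these differences have no replicate check.

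Lists of other genes differed in direction between the cultured arrays. All 7 tested macrophage and leukocyte genes were higher on cultured replicate 1, by a median log2 difference of 0.97, and their summed intensity was 3671.2 on replicate 1 and 1683.5 on replicate 2, against 221.1 to 284.8 at P4 and 345.8 to 470.1 at P0. Stroma and fibroblast genes summed to 15930 and 15681 on the cultured arrays, with 9 of 14 higher on replicate 1 (median 0.34). Partners of the actin cytoskeleton were higher on replicate 1 in 11 of 18 (median 0.17). Of 5 endothelial genes none was higher on replicate 1 (median -0.32), of 9 pericyte and vascular wall genes 2 (median -0.25) and of 9 granulosa genes 2 (median -0.20). Contraction signalling genes were higher in 6 of 19 (median -0.14), and serum response factor, TGF-beta and YAP genes in 4 of 10 (median -0.12). The part of these cell types in the contractile values was not tested.

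**Figure D4:**
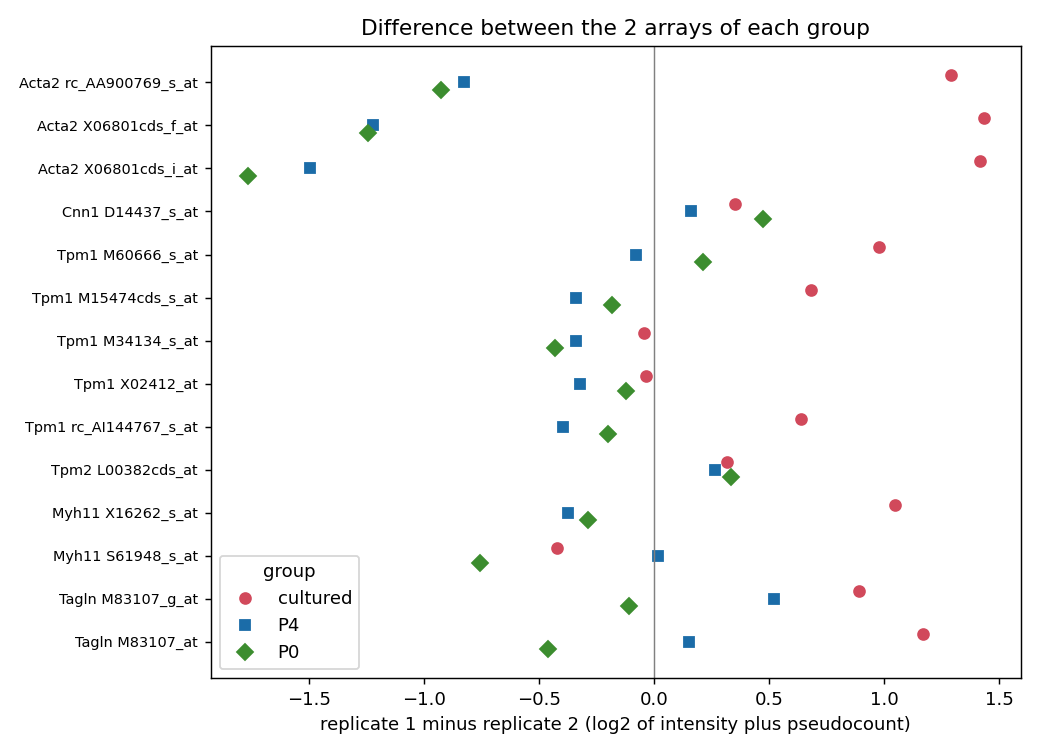
Replicate 1 minus replicate 2 in log2 of intensity plus 7.7 (x axis) for the 14 tested probe sets, in cultured (circles), P4 (squares) and P0 (diamonds) ovaries. Acta2 lies at 1.29 to 1.43 in culture and at -1.77 to -0.83 in both other groups, while Cnn1 and Tpm2 stay within 0.5 of 0.

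The wider contractile machinery was followed in a list of 30 partners of the actin cytoskeleton, 18 of which were tested on their brightest probe set. Between P4 and P0, 1 of the 18 rose, none fell and 17 did not pass (median 0.10, against -0.04 over all tested genes). Cultured against P0, 1 fell and none rose (median -0.06, against -0.05), and cultured against P4, 1 fell and none rose (median -0.21, against -0.03). The riser at P4 was Fhl2, an actin-associated LIM protein and cofactor of serum response factor. It read 83.1 and 83.8 in cultured ovaries, 181.9 and 212.9 in P4 ovaries, and 77.9 and 91.0 in P0 ovaries. Its log2 difference was 1.15 for P4 against P0 (SE 0.22, limma adjusted p = 0.0422, and between 0.0927 and 0.191 without each array in turn) and -1.17 for cultured against P4 (limma adjusted p = 0.0201, and between 0.0719 and 0.125 without each cultured or P4 array). The P4 call against P0 also ended with quantile normalization (adjusted p = 0.058), no filter (0.0764), no variance trend (0.0675) and the fit of those 2 groups alone (0.0969).

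Pdlim3, a protein of the alpha-actinin-rich Z disc, fell in culture against P0 by 1.00 on the log2 scale (limma adjusted p = 0.0394, and between 0.056 and 0.172 without each array). The call also ended with no filter (0.0888), with arrays centred on the median (0.0537) and in the fit of those 2 groups alone (0.0568). Pdlim3 read 35.9 and 36.3 in cultured ovaries, 58.1 and 53.2 in P4 ovaries, and 89.3 and 70.9 in P0 ovaries. With the chip batch as a block, 2 of the 18 rose at P4, Fhl2 and Pdlim1 (adjusted p = 0.0169 for Pdlim1, or 0.101 without the block).

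The other partners lay on both sides of 0 for P4 against P0, more of them above it than below. The 4 muscle genes and the cytoplasmic actin Actg1 given next were chosen after their values were seen. They are examples and do not give the share of partners on each side. The enteric smooth muscle actin Actg2 read 101.8 and 49.6 in cultured ovaries, 126.3 and 92.6 in P4 ovaries, and 50.2 and 82.1 in P0 ovaries (log2 difference of P4 against P0 0.69, limma adjusted p = 0.456). Myl9, a regulatory light chain, read 935.9 and 517.1 in cultured ovaries, 1128.1 and 1070.5 in P4 ovaries, and 617.4 and 806.7 in P0 ovaries (log2 difference of P4 against P0 0.63, limma adjusted p = 0.357). Those 2 lay above 0, and the next 2 below. The intermediate filament gene Des (desmin) read 37.4 and 19.2 in cultured ovaries, 10.3 and 13.3 in P4 ovaries, and 14.8 and 62.8 in P0 ovaries (log2 difference of P4 against P0 -1.03, limma adjusted p = 0.439). Des lay under the highest control reading on both P4 arrays, on P0 replicate 1 and on cultured replicate 2. Its difference between P4 and P0 thus rests on P0 replicate 2 and gives no usable order of those groups. Csrp1, a LIM protein of smooth muscle, read 363.5 and 256.5 in cultured ovaries, 357.3 and 328.6 in P4 ovaries, and 321.5 and 486.5 in P0 ovaries (log2 difference of P4 against P0 -0.20, limma adjusted p = 0.823). None of these 4 passed. All 4 read higher on cultured replicate 1 than on replicate 2, where 11 of the 18 tested partners did and the others read lower. Actg1 read 3200.0 and 2783.3 in cultured ovaries, 3341.0 and 3524.6 in P4 ovaries, and 3174.3 and 3240.5 in P0 ovaries, and did not pass either.

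Genes that signal for contraction or handle calcium held 19 tested members, none of which passed in any of the 3 comparisons, with medians of -0.11 for P4 against P0, -0.08 for cultured against P0 and 0.02 for cultured against P4. With the chip batch as a block, 1 of them rose at P4. Targets and regulators along the serum response factor, TGF-beta and YAP routes held 10, of which Gata6, a transcription factor of mesenchyme and gonad, was the one that passed. It read 173.9 and 165.2 in cultured ovaries, 378.1 and 321.4 in P4 ovaries, and 436.3 and 402.9 in P0 ovaries. On the log2 scale it differed by -1.27 for cultured against P0 (limma adjusted p = 0.00734, or 0.0743 without cultured replicate 2) and by -1.01 for cultured against P4 (limma adjusted p = 0.0258). The call against P0 also ended without cultured replicate 1 (0.0539). That against P4 ended without any 1 of the cultured and P4 arrays (between 0.0608 and 0.173) and with no variance trend (0.0552).

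Among 9 pericyte and vascular wall genes, elastin (Eln), the elastic fibre protein of vessel walls, fell in culture against P0 and 8 did not pass. Between P4 and P0 none of the 9 passed, or 1, lower at P4, with the chip batch as a block. It read 478.2 and 190.1 in cultured ovaries, 557.3 and 917.4 in P4 ovaries, and 865.5 and 1547.5 in P0 ovaries, a log2 difference of -1.91 for cultured against P0 (limma adjusted p = 0.0319). That call ended without cultured replicate 2 (adjusted p = 0.218) or P0 replicate 2 (0.157), with no filter (0.066), with arrays centred on the median (0.0614) and with no variance trend (0.0752). Like Acta2, Eln was higher on replicate 2 at P4 and P0 and on replicate 1 in culture.

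Lists of other cell types gave the setting of these values. Of 27 striated muscle genes on the array, 11 read under 20 on all arrays, including skeletal actin Acta1 and the myogenic factors Myod1 and Myog, named for their place as markers and not for a test. The 13 tested summed to 481.7 to 496.2 in cultured ovaries, 676.2 to 676.8 in P4 ovaries and 753.5 to 768.9 in P0 ovaries, and none passed. Of 14 stroma and fibroblast genes, Postn, which encodes the matrix protein periostin, fell in culture against P0, and none passed in either other comparison, or 2, lower at P4, with the block. Postn read 640.4 and 393.4 in cultured ovaries, 609.1 and 692.1 in P4 ovaries, and 1390.8 and 1587.2 in P0 ovaries (log2 difference of cultured against P0 -1.55, limma adjusted p = 0.0066, or 0.0597 without cultured replicate 2). The 5 endothelial genes summed to 255.8 to 357.3 in cultured ovaries, 301.1 to 428.7 in P4 ovaries and 482.6 to 576.4 in P0 ovaries, with none passing, or 1, lower at P4, with the block. Theca and steroid cell genes, of which 3 were tested, summed to 90.7 to 137.3 in cultured ovaries, 159.1 to 304.6 in P4 ovaries and 45.4 to 106.4 in P0 ovaries, with none passing unless the chip batch was a block, when 2 rose at P4. Their part in the contractile values was not tested.

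Markers of the ovary itself were present. The 6 tested oocyte genes summed to 3177.2 to 3277.2 in cultured ovaries, 4013.4 to 4339.1 in P4 ovaries and 1306.0 to 1357.2 in P0 ovaries, and the 3 zona pellucida genes Zp1, Zp2 and Zp3 among them rose at P4 and in culture against P0. In culture the calls of Zp1 (adjusted p = 0.0849) and Zp3 (0.167) ended without cultured replicate 1, and each of these calls also ended without cultured replicate 2 or either P0 array. Zp3 in culture was lost with no variance trend too (0.0683), and Zp1 at P4 without P0 replicate 2 (0.0526) or P4 replicate 1 (0.0759). The 9 granulosa genes summed to 1795.0 to 1980.4 in cultured ovaries, 3037.2 to 3964.5 in P4 ovaries and 1936.5 to 1953.6 in P0 ovaries. Between P4 and P0, 3 of the 9 rose, Inha and Cyp19a1 among them, and none fell, or 4 and 1 with the block. Cultured against P0, 2 rose, Krt18 among them, and 1 fell. Cultured against P4, 2 rose, Krt18 among them, and Amh, Inha and Cyp19a1 fell. For each of these named granulosa genes a call ended in at least 1 comparison when 1 array was left out. Of surface epithelium and mesothelium genes 3 were tested and none passed, or 1 higher and 1 lower at P4 with the block. Among 7 macrophage and leukocyte genes, 5 rose in culture, against P0 as against P4. Lyz2 had the smallest p of them in both, with log2 differences of 3.48 against P0 and 3.84 against P4. None of the 7 passed between P4 and P0, or 2, lower at P4, with the block. Of the rises against P0, those of C1qb (adjusted p = 0.181), Ctss (0.0904) and Aif1 (0.0756) ended without cultured replicate 1. The calls of Ctss and Aif1 also ended without either P0 array, and that of C1qb without cultured replicate 2 or P0 replicate 1 and with no filter, no variance trend or quantile normalization. Replicate arrays correlated at 0.962 to 0.969 over the tested probe sets, and cultured arrays with those of the other groups at 0.913 to 0.935.

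Likeness over the 6 arrays was measured as Pearson's r of log2 values, among 830 tested probe sets of other genes with a standard deviation of at least 0.5. The arrays form 3 groups, and those of P0 and P4 share chip batches, so these r values are a description. Closest to the brightest Acta2 probe set were Vegfb (r = 0.97), Pcp4l1 (0.95), Col1a1 (0.94), Sec31a (0.94) and Sparc (0.94), and 11 of the 830 exceeded 0.9. Vegfb and Pcp4l1 were dim, at 5.0 to 33.8 and 6.4 to 37.4. Col1a1, a chain of type I collagen, read 1794.8 and 901.1 in cultured ovaries, 1488.7 and 3197.7 in P4 ovaries, and 1353.1 and 1854.2 in P0 ovaries. Sparc, a collagen-binding matrix protein, read 1578.0 and 736.3 in cultured ovaries, 918.5 and 1587.3 in P4 ovaries, and 672.2 and 1487.0 in P0 ovaries. Both were higher on replicate 2 at P4 and P0 and on replicate 1 in culture, as Acta2 was. Their choice by r with Acta2 over these same arrays brings that likeness with it.

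The contractile genes themselves followed Acta2 less closely, with r of 0.66 for Tpm1, 0.40 for Myh11, 0.26 for Tagln, 0.13 for Cnn1 and 0.08 for Tpm2, each on its brightest probe set. Against the mean of the 6 standardised profiles, Tagln, Myh11, Tpm2 and Cnn1 had r of 0.82 to 0.83, Acta2 0.59 and Tpm1 0.44. Each of the 6 is itself part of that mean, which raises its r, so these values do not measure a shared profile. The genes closest to that mean were Gorasp1 (r = 0.97), Oaz3 (0.97), Gng8 (0.94), Mrpl38 (0.92) and Dpep1 (0.91), and no others of the 830 exceeded 0.9.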

How the data were processed

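The authors deposited 1 linear intensity per probe set and array, already scaled: after trimming 2% at each end, all 6 arrays had a mean of 125.2. Which algorithm made the intensities is not given in the sources used here. Per the labels' protocols, RNA was prepared with Trizol and labelled by standard Affymetrix procedures.

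The scaling was kept. To each value 7.7 was added (the 20th percentile of the table) before log2 was taken. Left out were 59 control probe sets and those whose average log2 value fell below the 30th percentile, so 6118 were tested, for 3635 named genes. Symbols came from GEO's platform annotation: 7018 probe sets have 1 symbol, 308 several and 1473 none. By gene number 6994 matched a RefSeq table of GRCr8, and none changed.

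A model with 3 group means and a variance trend was fitted over the 6 arrays using limma 3.58.1 (R 4.3.3), after it had been tested on simulated data. It has 3 residual and 6.45 prior degrees of freedom, and a median SE of 0.26 for a log2 difference. Tests are two-sided, and the number of arrays limits precision. The p-values rest on the spread between the arrays of a group, in which pool and chip cannot be told apart.

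P0 and P4 replicates of 1 number share a chip identifier ending per the labels, which pairs them, and their deviations from the group means correlated at 0.33. The blocked fit used those 4 arrays for the group means and a batch term. That leaves fewer residual degrees of freedom than the 3 of the main fit. Its p-values therefore lean more on the variances of other probe sets.

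The 6 genes, the lists and the alternatives were chosen with earlier results of these data known. The genes named beyond the 6 are list members passing in any comparison (at most 4 a list, by p), the 5 closest in profile, and, outside that rule, those marked in the text and 3 striated muscle markers.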

Additional observations from a re-analysis of the deposited data

How the results depend on the processing

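The number of contractile probe sets that passed stayed at 0 of 14 in all 3 comparisons under the other pseudocounts, filters, normalizations, variance model and two-group fits, with 2 exceptions in all: 1 (Cnn1) for P4 against P0 with the replicate block, and 0 to 1 (Myh11) for cultured against P0 when each array was left out in turn. Over all probe sets, 66 passed between P4 and P0, against 23 with no filter, 29 with no variance trend, 23 in the fit of those 2 groups alone, 314 with the replicate block, and 15 to 55 without each array. The cause of these changes was not tested. Cultured against P0 the count was 332, and 90 to 353 without each array, and cultured against P4 it was 170, and 86 to 193. The block changed no other contractile call. Quantile normalization and centring each array on its median moved the median of all tested probe sets by less than 0.1 in each comparison, and the counts of 11, 7 and 2 contractile probe sets above 0 were the same. That centring moved the share of higher probe sets among those passing between cultured and P0 to 75.4% (205 higher and 67 lower), against 64.2% (213 higher and 119 lower). Of the log2 differences of contractile probe sets under settings other than leaving out an array, 343 kept their direction and side of the threshold, the one of Cnn1 with the block passed, and 0 changed sign. The filters, the variance model, the two-group fits and the block leave each log2 difference as it was. A sign could thus change only under the other pseudocounts and normalizations.

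Leaving out each array in turn changed 34 signs, while 217 differences kept direction and side of the threshold. For P4 against P0 the Acta2 differences ranged from -0.0255 to 0.90, -0.0741 to 1.17 and -0.20 to 1.57 on the probe sets from brightest to dimmest, below 0 without P0 replicate 1 on all 3 and without P4 replicate 2 on both X06801 probe sets. For cultured against P0 they ranged from -0.81 to 0.48, -0.51 to 0.92 and -0.35 to 1.41, and for cultured against P4 from -1.25 to 0.0417, -1.06 to 0.37 and -0.90 to 0.60. Cnn1 ranged from -0.34 to 0.0119 and Tpm2 from -0.21 to 0.10 for cultured against P4. Tpm1 ranged from -0.0019 to 0.21, -0.25 to 0.0891, -0.39 to 0.0398 and -0.34 to 0.055 for P4 against P0 (M60666_s_at, M15474cds_s_at, M34134_s_at and rc_AI144767_s_at), and M34134_s_at from -0.29 to 0.0483 for cultured against P4. The brighter Myh11 probe set ranged from -0.0065 to 1.04 for cultured against P4. The dimmer one ranged from -0.54 to 0.22 for cultured against P0 and from -0.28 to 0.48 for P4 against P0. Tagln ranged from -0.20 to 0.69 and -0.61 to 0.55 for cultured against P4, and on the second probe set from -0.0404 to 1.13 for cultured against P0. The fits without 1 array assume that the lone array left in a group varies like the others. Leaving out an array of the group outside a comparison cannot move its log2 difference. Such fits could not change a sign and count among the 217. Probe sets near the control level of 20 give no usable order of groups.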
